A study of Mus musculus with 20 samples.

Results

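Adipocyte precursors are the fibroblast-like stromal cells of fat from which new fat cells form. The comparison here sets precursors of the inguinal subcutaneous depot (SWAT) of female mice after 3 days of high-fat feeding against those on standard diet. It uses 9 of the 20 libraries of the series, namely all 5 SWAT libraries on high-fat diet (HFD) and 4 of the 5 SWAT libraries on standard diet (SD). The fifth SWAT SD library was left out because it carried marker genes of visceral fat. The HFD mice ate a diet with 60% lard (Research Diets D12492) for 3 days and are labelled day 3. The SD mice ate a chow diet (Harlan 2018S) and are labelled day 0. Diet and day label coincide in all 9 libraries, so a difference by diet cannot be told apart from one by day. All mice were female C57Bl6/J aged 8 to 11 weeks, with no transgene or deletion named in the labels. Tissue of 3 mice was pooled for each library, so each replicate is a pool and the spread between single mice is not seen. Cells were sorted as negative for CD45 (leukocytes) and CD31 (endothelium) and positive for CD29, CD34 and Sca1, with CD24 either present or absent. Polyadenylated RNA was read in 75 bp single-end reads.

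Precursors in adult fat are mostly quiescent and sit in a collagen-rich matrix that they secrete themselves. When energy supply rises they can re-enter the cell cycle and later commit to the adipocyte fate under the control of Pparg and the C/EBP factors. During mitosis a program of cyclins, kinesins and spindle proteins is transcribed together, and its promoters are known for carrying CCAAT boxes and a cell cycle homology region (CHR). Matrix secretion draws on another group of genes, which encode collagens, the enzymes that fold and crosslink them, and matricellular proteins such as periostin.

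Reads counted on genes came to 16.3 to 47.5 M in the HFD libraries and 14.4 to 35.9 M in the SD libraries. Levels are given as CPM, which are gene counts scaled to the same library size with TMM factors. CPM is not corrected for gene length, so it is compared between libraries and not between genes. By depth alone, before the TMM factors, 1 CPM in the shallowest library stands for 14.37 reads. Before the other results, 3 library measures were set side by side. Gene reads differed by less than the spread between libraries (exact two-sided permutation p = 0.5476). The share of reads that fell on no gene was 3.75% ± 0.53 on HFD and 5.97% ± 2.55 on SD (± s.d., n = 5 and 4), and all HFD libraries lay below all SD libraries (exact two-sided permutation p = 0.007937, 0.02381 adjusted over 3 measures). SD 4 stood apart at 9.80%. The GC trend, which is Spearman's correlation across genes between a gene's deviation in a library and its GC content, averaged -0.446 on HFD and 0.314 on SD (exact two-sided permutation p = 0.02381, adjusted 0.03572). HFD 2, at 0.0955, lay among the SD libraries, which ran from -0.179 in SD 1 to 0.682 in SD 3. Without SD 4 both adjusted values were 0.08036 (exact permutation). Across genes, which are not independent of each other, Spearman's correlation between fold change and GC content was -0.693. Its part in the results that follow was not tested, and a fit that takes each library's GC trend out is given beside them.

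**Figure D1:**
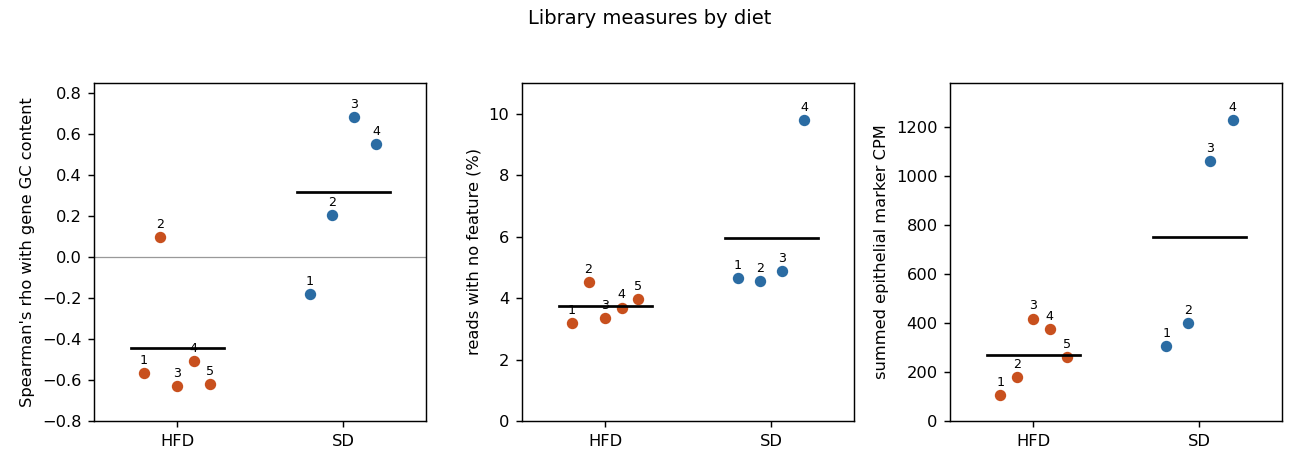
Library measures by diet, with 5 HFD libraries on the left and 4 SD libraries on the right of each panel, numbered by replicate, and the mean as a bar. The panels show Spearman's correlation of each library's gene deviations with GC content, the percent of reads on no feature, and the summed CPM of 14 mammary and skin epithelial markers. SD 3 and SD 4 are high in the first and last panels, SD 4 is highest for reads on no feature, and HFD 2 lies among the SD libraries in the first panel.

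The depot label was checked against its markers. Tbx15, a developmental factor of subcutaneous fat, was at 69.9, 67.9, 79.2, 69.5 and 75.5 CPM in HFD 1 to 5, against 62.5, 64.7, 38.8 and 54.0 CPM in SD 1 to 4. Irx1, a homeobox gene of the same depot, was at 22.6, 21.8, 21.3, 15.8 and 18.9 CPM on HFD, against 26.4, 28.7, 29.7 and 26.6 CPM on SD. The groups did not overlap for either gene, but neither passed the test (edgeR adjusted p = 0.128 and 0.0785). Wt1, the visceral and mesothelial factor, was at 0.315 to 1.36 CPM on HFD and 0.0781 to 3.93 CPM on SD. Scaled by depth alone, the left-out SD 5 library had 83.8 CPM of Wt1, within the 76.2 to 244 CPM of the visceral libraries other than SD 5, and 0.374 CPM of Tbx15. The subcutaneous identity list had 1 of 14 tested members called, Hoxd9, which fell by 1.30 on the log2 scale, and the visceral list 0 of 6.

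The markers of the sort were measured as well. Pdgfra, the receptor that marks precursors, was at 514 to 566 CPM on HFD and 254 to 472 CPM on SD. Cd34 averaged 2141 CPM on HFD and 1825 CPM on SD, and Ly6a, which encodes Sca1, 2107 and 2216 CPM. Itgb1, which encodes CD29, averaged 545 ± 63.3 CPM on HFD and 284 ± 88.8 CPM on SD (s.d., n = 5 and 4), a log2 fold change of 0.94 ± 0.23 (SE; adjusted p = 0.0396, edgeR). Ptprc, which encodes the excluded CD45, reached 1.92 CPM on HFD and 3.59 CPM on SD at most, while Pecam1 for CD31 was at 17.1 to 26.3 CPM on HFD and 15.5 to 41.1 CPM on SD. In these bulk libraries, fewer cells of a type and less RNA per cell cannot be told apart.

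Genes higher after 3 days of HFD included 31 of 39 mitosis genes and 5 of 10 fibrillar collagens, and genes lower on HFD included 5 of 18 complement, 4 of 14 liver X receptor and 4 of 13 epithelial genes. At an adjusted p under 0.05 by edgeR, 2.98% of the 13746 genes tested (409) passed as higher and 4.63% (637) as lower, together 7.61%. Every list count in this report stands against these shares, and a count near them is no result about the list. All 5 HFD libraries lay above all 4 SD libraries for 938 genes (6.82%) and below them for 877 (6.38%). The GC-corrected fit gave 118 genes higher (0.87%) and 46 lower (0.339%) of 13566 with a GC value. Called with and without the correction were 92 higher (0.669%) and 25 lower (0.182%).

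The number of calls rested on single libraries. Without SD 2, SD 4 or HFD 5 no gene passed by edgeR, with 5357, 3831 and 3960 genes at an unadjusted p under 0.05 and 5289 in the full comparison. Without HFD 1 or HFD 3 only 5 higher genes passed each time. Without SD 3 there were 43 higher and 17 lower genes, and without HFD 4 there were 66 and 18. Without SD 1 there were 2073 higher and 2774 lower genes, and without HFD 2 there were 916 and 1206. The smallest adjusted p in the full comparison was 0.01479, so many genes sat just inside the threshold. Every one of the 1046 called genes that could be fitted kept its direction in each of these 9 fits. They were called for their difference in the same libraries, so a kept direction is largely set by that choice. With the share of reads on no feature as a covariate 0 genes passed by edgeR, with 2354 at an unadjusted p under 0.05, and that share cannot be told apart from diet here. In that fit the mitosis median was 2.54, the fibrillar collagen median 0.56 and the interferon median 0.72. All 1046 called genes kept their direction, again in the libraries from which they were called.

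Mitosis genes rose together on HFD. All 39 tested members of the mitosis list had a positive log2 fold change, 31 passed the test and none fell, with a median of 2.79 against -0.02 over all genes tested. Mki67, the proliferation marker Ki-67, was at 25.8, 6.94, 8.08, 3.56 and 10.8 CPM in HFD 1 to 5, against 1.85, 2.10, 0.286 and 1.33 CPM in SD 1 to 4. Every HFD library was above every SD library, with HFD 1 far above the rest and SD 3 lowest. The log2 fold change was 2.98 ± 0.60 (SE; adjusted p = 0.0317, edgeR). The summed level of the list ran from 69.07 CPM in HFD 4 to 335 CPM in HFD 1, and from 19.1 CPM in SD 3 to 40.2 CPM in SD 1. These sums differed more among HFD pools than among SD pools. Some members, such as Ccna2, were below 1 CPM in every SD library, so their SD levels rest on few reads.

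Cyclins and their kinase were among the genes with the steepest rises. Ccna2, the S and G2 phase cyclin A2, was at 10.6, 6.67, 3.13, 1.90 and 4.66 CPM on HFD, against 0.676, 0.272, 0.0357 and 0.468 CPM on SD. Its log2 fold change was 3.88 ± 0.65 (SE; adjusted p = 0.0257, edgeR), the steepest of the genes named by rule. Ccnb1, the mitotic cyclin B1, averaged 4.24 CPM on HFD and 0.309 CPM on SD, with no read in SD 4, and its relative Ccnb2 averaged 4.60 and 0.645 CPM. Cdk1, the kinase that these cyclins activate, averaged 4.38 ± 2.97 CPM on HFD and 0.609 ± 0.377 CPM on SD (s.d., n = 5 and 4; log2 fold change 2.77 ± 0.57 SE, edgeR adjusted p = 0.0326). Foxm1, the transcription factor that drives much of this program and was named after its values were seen, rose by 1.70 ± 0.35, with 9.62 CPM on HFD and 2.94 CPM on SD on average (edgeR adjusted p = 0.0326). The libraries kept a shared order over these genes, with HFD 1 or HFD 2 highest and HFD 4 lowest of the HFD libraries.

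Spindle and cytokinesis genes rose as well. Tpx2, which nucleates spindle microtubules, was at 17.3, 13.0, 6.14, 4.10 and 9.45 CPM on HFD, against 1.79, 1.48, 0.821 and 1.40 CPM on SD (log2 fold change 2.86 ± 0.42 SE, edgeR adjusted p = 0.0203). Anln, the cleavage furrow protein anillin, was at 5.66 to 18.7 CPM on HFD and 0.937 to 2.76 CPM on SD, a log2 fold change of 2.75 ± 0.41. The midzone proteins Prc1 and Kif23 rose by 3.04 ± 0.49 and 3.39 ± 0.66, and Ect2, which sets up the contractile ring of cytokinesis, by 3.57 ± 0.64. Ube2c, which serves the anaphase-promoting complex, rose by 2.91 ± 0.46 and averaged 5.93 CPM on HFD and 0.787 CPM on SD. Top2a, the topoisomerase of dividing cells, averaged 18.2 ± 12.3 CPM on HFD and 2.20 ± 1.62 CPM on SD (s.d., n = 5 and 4), but its lowest HFD library, at 4.78 CPM, was close to SD 4 at 4.21 CPM. After the GC correction 16 mitosis genes passed and the list median was 2.62. Top2a and Ccnb2 no longer passed there (edgeR adjusted p = 0.0554 and 0.0557), while Mki67 did, at 2.70 (edgeR adjusted p = 0.0357). Against SD 1 and SD 2 alone, the SD libraries nearest to HFD in GC trend, all 39 members stayed positive with a median of 2.57 and 0 passed.

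**Figure D2:**
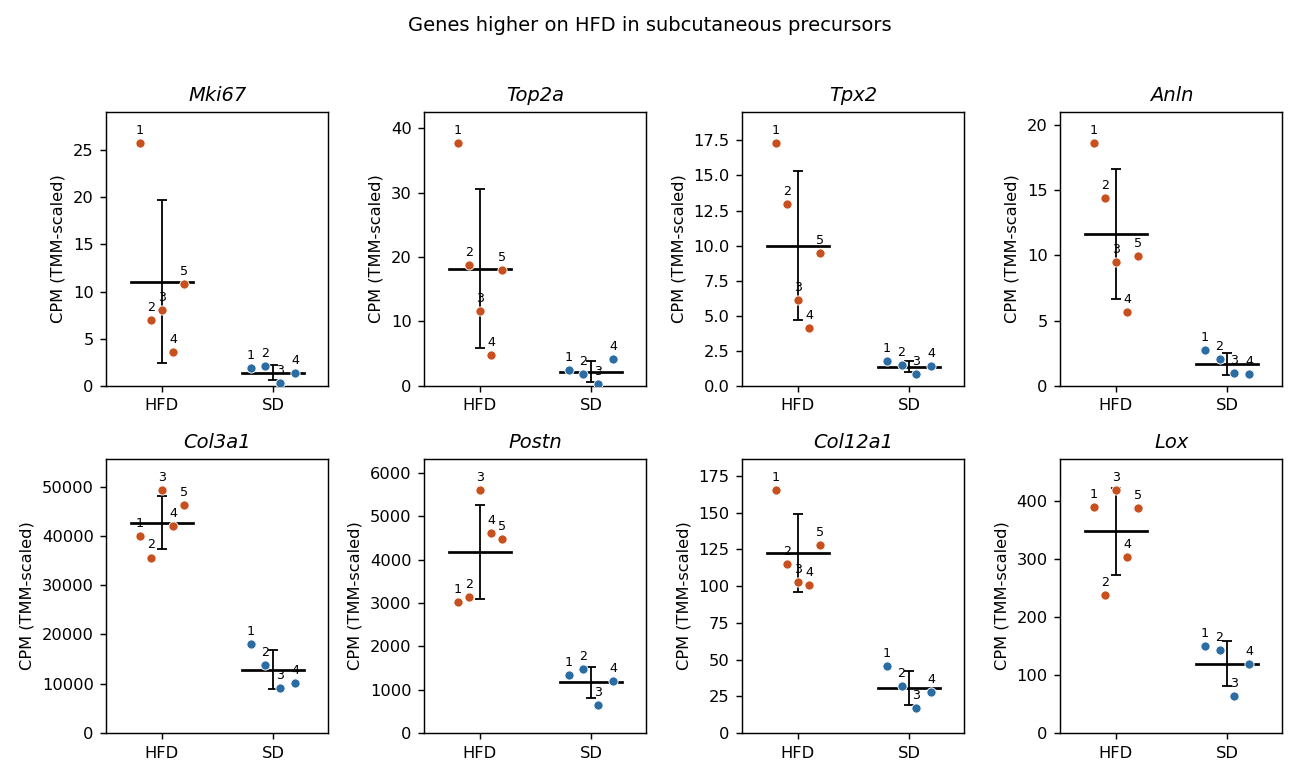
CPM of 8 genes that were higher on HFD, with 5 HFD libraries left and 4 SD libraries right in each panel. Points are libraries numbered by replicate, and bars give the mean ± SD. In all 8 panels every HFD library lies above every SD library, closest for Top2a (4.78 CPM in HFD 4 and 4.21 CPM in SD 4). HFD 1 is highest for the 4 mitosis genes in the upper row.

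The promoters of 3 of these genes are printed because they hold both motifs for which mitotic promoters are known. They are the 130 bases upstream of the annotated start, in RefSeq for GRCm38.p6, with CHR matches (TTTGAA or its complement TTCAAA) and CCAAT boxes (CCAAT or ATTGG) in capitals. Ube2c lies on the plus strand at chr2:164769799-164769928, Top2a on the minus strand at chr11:99024190-99024319 and Cdk1 on the minus strand at chr10:69352913-69353042.
Ube2c: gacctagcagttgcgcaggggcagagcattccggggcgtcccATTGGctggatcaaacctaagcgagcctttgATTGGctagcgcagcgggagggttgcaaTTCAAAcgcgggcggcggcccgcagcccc
Top2a: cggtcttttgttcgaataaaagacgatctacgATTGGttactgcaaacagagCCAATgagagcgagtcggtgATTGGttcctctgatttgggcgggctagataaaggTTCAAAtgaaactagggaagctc
Cdk1: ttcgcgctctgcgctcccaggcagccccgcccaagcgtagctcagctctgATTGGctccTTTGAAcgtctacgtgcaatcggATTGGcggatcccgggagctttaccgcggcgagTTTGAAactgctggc
Ube2c holds 2 CCAAT boxes and 1 CHR, Top2a holds 3 and 1, and Cdk1 holds 2 and 2. Of 40 mitosis genes 35 matched, with 37 promoters. In the 250 bases upstream, 12 of the 37 (32.4%) held both motifs on either strand, against 5.55% of all 32851 promoters. CHR was in 13 of the 37 and in 5252 of all promoters, and the CCAAT box in 78.4% and 33.8%. In the DNA replication list 8.33% of 36 promoters held both. A match is a description of letters and was not tested as a binding site.

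Of 36 tested DNA replication genes 3 rose and none fell, against 2.98% of all genes tested that rose, with a median log2 fold change of 0.42. Rrm2, the cell-cycle-regulated subunit of ribonucleotide reductase, was at 6.55, 4.28, 2.66, 1.66 and 2.63 CPM on HFD, against 1.43, 1.32, 0.642 and 0.781 CPM on SD (log2 fold change 1.75 ± 0.43 SE, edgeR adjusted p = 0.0396). Its partner subunit Rrm1 rose by 0.69 ± 0.19 and Pola1, the catalytic subunit of DNA polymerase alpha, by 1.06 ± 0.26. None of the 36 passed with the GC correction, where Rrm1 was at 0.07 and Pola1 at 0.40. Among 20 tested D cyclins and cell cycle brakes 1 gene passed, the inhibitor Cdkn1a (p21), which fell by 0.76 (edgeR adjusted p = 0.0468). Ccnd1, the cyclin of early G1, had a log2 fold change of 0.15 (edgeR adjusted p = 0.56).

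Fibrillar collagens rose in part. Of 10 fibrillar and associated collagens 5 rose and none fell, all 10 were positive, and the median was 0.67. Col3a1, type III collagen, was at 39992, 35646, 49418, 42049 and 46306 CPM in HFD 1 to 5, against 18008, 13895, 9208 and 10199 CPM in SD 1 to 4. The lowest HFD library was well above the highest SD library. The log2 fold change was 1.73 ± 0.22 (SE; adjusted p = 0.0148, edgeR), a 3.33-fold rise. Col1a1, a chain of type I collagen, was at 21696 to 29346 CPM on HFD and 12172 to 18481 CPM on SD, and rose by 0.70 ± 0.18 (edgeR adjusted p = 0.0426). The CPM of Col3a1, Col1a1 and Col1a2 together came to 9.135% of the TMM-scaled library size on HFD and 4.338% on SD on average. Col12a1, a collagen that coats fibrils, was at 166, 115, 103, 100.4 and 128 CPM on HFD, against 45.5, 32.0, 17.3 and 27.6 CPM on SD (log2 fold change 1.999 ± 0.27 SE, edgeR adjusted p = 0.0191). Col5a2, which sets fibril diameter, rose by 1.22 ± 0.20. Corrected for GC, 6 of the 10 passed and the median was 1.07, Col3a1 was at 1.93 and Col1a1 at 1.27.

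Other matrix genes rose in part. In the basement membrane list 5 of 22 members rose and none fell, with a median of 0.58. These were Col6a3 (0.79 ± 0.19), Col15a1 (0.75 ± 0.17), the laminin chains Lama4 (0.75) and Lamb1 (0.73), and Nid1 (0.87 ± 0.23), which links laminin to collagen IV. With the GC correction 6 of the list passed and its median was 0.79. Col6a3 and Col15a1 were among them, at 1.16 and 1.20, and Lama4, Lamb1 and Nid1 were not. In the matricellular and elastic fibre list 7 of 31 rose and 2 fell. Postn, which encodes periostin, was at 3014, 3136, 5612, 4617 and 4486 CPM on HFD, against 1337, 1471, 646 and 1201 CPM on SD. All HFD libraries were above all SD libraries, with HFD 1 and HFD 2 the lowest of their group. The log2 fold change was 1.84 ± 0.27 (SE; adjusted p = 0.0203, edgeR), and 1.10 with the GC correction (edgeR adjusted p = 0.0242). Tenascin C (Tnc), thrombospondin 1 (Thbs1), fibrillin 1 (Fbn1), fibrillin 2 (Fbn2), Sparc and Wisp1 rose by 1.75, 1.28, 1.02, 1.41, 0.69 and 1.17. Fbln1, the elastic fibre protein fibulin 1, fell by 1.33 ± 0.24, with 673 ± 129 CPM on HFD and 1690.1 ± 598 CPM on SD (s.d., n = 5 and 4; edgeR adjusted p = 0.0311), and Tgfbi fell by 1.59.

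Some enzymes that act on the matrix rose. Of 24 genes of collagen folding and crosslinking 5 rose and none fell, and the median was -0.02. Lox, lysyl oxidase, was at 388, 237, 419, 303 and 388 CPM on HFD, against 149, 143, 64.3 and 119 CPM on SD (log2 fold change 1.54 ± 0.26 SE, edgeR adjusted p = 0.0262). Its relative Loxl2 rose by 0.70 ± 0.18, and the collagen hydroxylases P4ha3 and Plod2 by 1.76 ± 0.42 and 1.62 ± 0.40. Sec23a, a coat protein of the vesicles that export procollagen, rose by 1.03 ± 0.25. Of 26 matrix proteinases and inhibitors 4 rose and 1 fell, and the median was 0.28. The GC-corrected median was 0.42 for folding and crosslinking and 0.35 for proteinases and inhibitors. Adamts12 and Adam12, which are metalloproteinases, rose by 1.72 ± 0.28 and 1.31 ± 0.25, and the serine protease Fap of activated fibroblasts by 1.26 ± 0.27, while the gelatinase Mmp2 fell by 0.67. Adamts12 was at 275, 231, 369, 363 and 346 CPM on HFD, against 117, 122, 45.6 and 99.5 CPM on SD. When corrected for GC, Lox, Loxl2, Adamts12 and Adam12 passed, while P4ha3, Plod2 and Fap did not (edgeR adjusted p = 0.0507, 0.0889 and 0.0524).

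Fibroblast activation genes outside these lists were chosen for naming after their values were seen. Lrrc15, a membrane protein of activated fibroblasts, was at 90.5, 88.7, 74.2, 91.0 and 101 CPM on HFD, against 33.9, 18.1, 21.9 and 33.4 CPM on SD. It rose by 1.73 ± 0.22 (SE; adjusted p = 0.0148, edgeR) and by 1.78 with the GC correction. Cthrc1, a secreted collagen triple helix protein, rose by 1.71 ± 0.34 and Cd109, which binds TGF-beta, by 1.48 ± 0.23. The small proteoglycans Aspn, Lum and Ogn and the large Vcan were the 4 of 18 proteoglycans that rose, by 1.70, 1.18, 1.20 and 1.79, and Aspn was the one that passed with the GC correction. Among 21 integrin and adhesion genes, Itgav, Itgb1 and focal adhesion kinase Ptk2 rose by 1.20, 0.94 and 1.00, and the collagen receptor Ddr1 fell by 0.89, with 0 passing by edgeR once GC was corrected for. Aldh1l2, a mitochondrial folate enzyme, was at 17.3 to 40.9 CPM on HFD and 5.07 to 7.83 CPM on SD (log2 fold change 1.94 ± 0.28 SE, edgeR adjusted p = 0.0203). Pycr1, which makes proline, the amino acid that abounds in collagen, rose by 1.14 ± 0.26 with 62.4 ± 13.1 CPM on HFD and 28.4 ± 10.9 CPM on SD (s.d., n = 5 and 4).

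**Figure D3:**
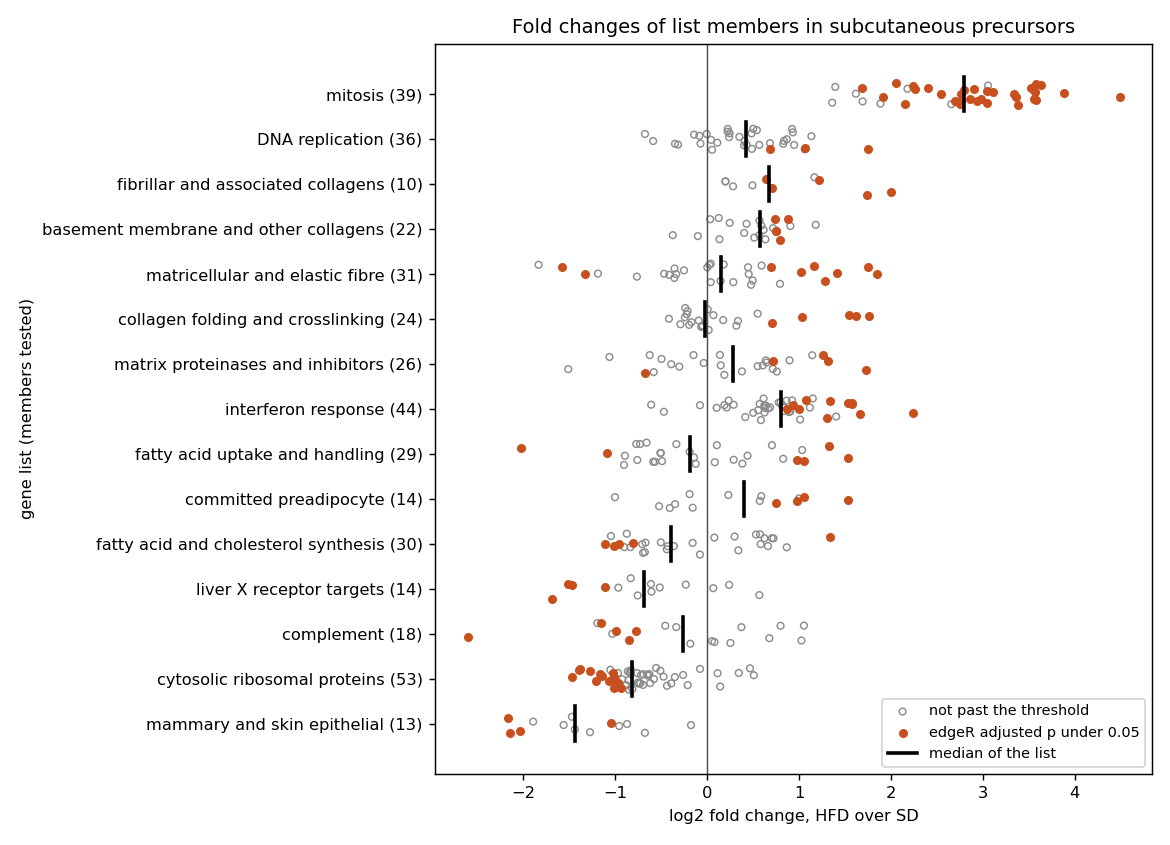
Log2 fold change, HFD over SD, of every tested member of 15 gene lists (number tested in brackets). Filled points passed edgeR's adjusted threshold of 0.05, open points did not, and the bar is the list median. The mitosis list lies farthest to the right (median 2.79), fibrillar collagens and interferon genes lie right of 0, and ribosomal protein and epithelial genes lie left of it (medians -0.82 and -1.44).

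Some interferon-stimulated genes rose. Of 44 tested members 11 rose and none fell, 41 were positive, and the median was 0.81, while the summed level overlapped, at 3976 to 6430.1 CPM on HFD and 3849 to 4371 CPM on SD. Ifih1 (MDA5) and Ddx58 (RIG-I) are cytosolic sensors of viral RNA. Ifih1 was at 73.4, 38.2, 59.7, 52.1 and 96.5 CPM on HFD, against 34.2, 26.01, 9.60 and 18.4 CPM on SD (log2 fold change 1.53 ± 0.35 SE, edgeR adjusted p = 0.0362). Ddx58 rose by 1.00 ± 0.24, the guanylate-binding protein Gbp3 by 1.30 ± 0.30 and the antiviral enzyme Rsad2 by 1.58 ± 0.42. Ifit3 was at 86.2, 56.3, 62.9, 87.8 and 229.9 CPM on HFD, against 43.1, 26.3, 20.6 and 42.0 CPM on SD. HFD 5 was highest for each of these genes and SD 3 lowest. Corrected for GC, 0 of the 44 passed by edgeR, the median was 0.62, and Ifih1, at 0.99, had an adjusted p of 0.0507. Leaving out each library in turn gave medians of 0.62 to 0.97. The chemokine Cxcl9, which interferon gamma induces and which was named after its values were seen, rose by 1.70 ± 0.25 and by 1.15 with the GC correction (edgeR adjusted p = 0.0203 and 0.0155). Ifitm1, an interferon-induced gene that is also outside the list and named after its values were seen, went the other way. It fell by 1.57 ± 0.31 and by 1.53 with the GC correction (edgeR adjusted p = 0.0317 and 0.0243). Of 30 inflammatory cytokine and NF-kB genes 0 were called by edgeR, with Il6 at 0.69 and Ccl2 at 0.34 (edgeR adjusted p = 0.0968 and 0.348).

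The promoters of 2 interferon genes are printed because they hold the core of the interferon-stimulated response element (ISRE). This was searched as GAAA, any 2 bases and GAAA on both strands, and overlapping matches run together in capitals. Gbp3 lies on the plus strand at chr3:142559914-142560043 and Rsad2 on the minus strand at chr12:26456453-26456582, in RefSeq for GRCm38.p6.
Gbp3: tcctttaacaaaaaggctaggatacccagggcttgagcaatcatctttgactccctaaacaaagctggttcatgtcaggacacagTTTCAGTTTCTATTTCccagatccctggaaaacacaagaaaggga
Rsad2: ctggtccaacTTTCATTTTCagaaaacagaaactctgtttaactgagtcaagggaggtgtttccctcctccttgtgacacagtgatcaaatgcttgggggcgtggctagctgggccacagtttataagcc
Of 44 interferon genes 31 matched, with 37 promoters, and 16 of these (43.2%) held the motif in the 250 bases upstream, against 2.98% of all promoters. In mitosis promoters it was 8.11%.

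Some complement genes fell on HFD. Of 18 tested members 5 fell and none rose. The median was -0.26, and 8 of the 18 were positive, among them Cd55 at 1.05 (edgeR adjusted p = 0.0505). C3, the central complement component, was at 8612, 9692, 7978, 11099 and 9855 CPM on HFD, against 13315, 15754, 17608 and 17958 CPM on SD, with no overlap (log2 fold change -0.77 ± 0.17 SE, edgeR adjusted p = 0.0358). C4b, which acts upstream of C3 in the classical pathway, was at 1441 to 1966 CPM on HFD and 2976 to 3997 CPM on SD, and C2, its partner in the C3 convertase, at 57.1 to 95.8 and 109 to 264 CPM. They fell by 0.99 ± 0.17 and 1.15 ± 0.25 (edgeR adjusted p = 0.0275 and 0.0341). Serping1, which inhibits C1, fell by 0.85, and Cfd, the protease adipsin that mature fat cells also secrete, by 2.61. In the GC-corrected fit C2 was the member called, at -0.92 (edgeR adjusted p = 0.0449), while C3 and C4b were at -0.49 and -0.55.

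Some liver X receptor genes fell. The 14 genes are the receptors Nr1h2 and Nr1h3, targets of them, and sterol genes such as Cyp27a1. Of these, 4 fell and none rose, with a median of -0.69. The fold change was positive for 3 of the 14, among them the cholesterol exporter Abca1 at 0.57 (edgeR adjusted p = 0.136). Apoe, the lipoprotein that carries cholesterol out of cells, was at 163, 306, 418, 359 and 267 CPM on HFD, against 490.3, 797, 1275 and 889 CPM on SD. Pltp, the phospholipid transfer protein, was at 38.9 to 96.2 CPM on HFD and 102 to 329.7 CPM on SD. The log2 fold changes were -1.51 ± 0.29 and -1.69 ± 0.34 (SE; adjusted p = 0.0317 for both, edgeR). Cyp27a1, which makes the oxysterol 27-hydroxycholesterol, fell by 1.47 ± 0.31, and Srebf1, the lipogenic factor that the receptor induces, by 1.11 ± 0.20. In these genes HFD 1 was lowest or near it and SD 3 highest. The GC-corrected median was -0.40 and Cyp27a1 was the member called, at -1.17 (edgeR adjusted p = 0.045). Apoe and Pltp were at -0.86 and -1.09 there (edgeR adjusted p = 0.067 and 0.062).

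Other lipid genes moved both ways. Among 29 genes of fatty acid uptake and handling 4 rose and 2 fell. Fabp4, the fatty acid carrier that marks commitment to the adipocyte fate, was at 58.4, 66.3, 80.7, 57.7 and 61.3 CPM on HFD, against 33.3, 30.4, 28.6 and 33.2 CPM on SD. The 4 SD libraries lay within 5 CPM of each other and all HFD libraries lay well above them. Cd36, the fatty acid translocase, was at 46.5 to 64.9 CPM on HFD and 10.1 to 28.3 CPM on SD. Fabp4 rose by 1.05 ± 0.17 and Cd36 by 1.54 ± 0.31, lipoprotein lipase Lpl by 0.98 ± 0.24 and caveolin 1 (Cav1) by 1.33 ± 0.23 (edgeR adjusted p = 0.0257, 0.0317, 0.0396 and 0.0275). None of these 4 passed with the GC correction, where Fabp4 was at 0.37 and Cd36 at 0.77. Plin4, a lipid droplet coat protein, was at 1.44, 6.37, 5.02, 4.10 and 2.63 CPM on HFD, against 9.26, 15.0, 20.1 and 19.0 CPM on SD. It fell by 2.02 ± 0.38 without the correction and by 1.56 with it (edgeR adjusted p = 0.0317 in both). The triglyceride enzyme Agpat2 fell by 1.09.

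In fatty acid and cholesterol synthesis 1 of 30 genes rose and 4 fell. The fatty acid synthase Fasn was at 156 to 187 CPM on HFD and 220.0 to 551 CPM on SD, and the desaturase Scd2 at 219 to 302 and 333 to 561 CPM. They fell by 0.96 ± 0.24 and 0.80 ± 0.19, and the desaturase Fads2 by 1.01, while Idi1 of the isoprenoid pathway rose by 1.34. Scd2 was at -0.89 with the GC correction and still passed (edgeR adjusted p = 0.0387), and Fasn was at -0.34 and did not. Cpt1a, the gatekeeper of mitochondrial fatty acid oxidation, was the one of 23 oxidation genes that rose. It was at 98.3, 93.8, 71.4, 69.5 and 81.4 CPM on HFD, against 54.2, 43.3, 39.9 and 35.8 CPM on SD. The log2 fold change was 0.94 ± 0.19 without and 1.04 with the GC correction (edgeR adjusted p = 0.0317 and 0.0186). In oxidative phosphorylation 3 of 36 genes fell (Ndufs7, Cox4i1 and Cox8a), and in glycolysis 1 of 20 fell (Aldoc).

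Of 28 adipogenic factors tested 2 fell, Cebpa and Srebf1, and none rose, with a median of 0.02. Over all genes tested 7.61% were called in either direction, so this is near the background share. Cebpa, which drives terminal adipocyte differentiation, was at 21.98, 27.7, 22.6, 22.4 and 19.9 CPM on HFD, against 37.99, 44.2, 79.95 and 42.4 CPM on SD (log2 fold change -1.16 ± 0.23 SE, edgeR adjusted p = 0.0317), and at -0.49 with the GC correction (edgeR adjusted p = 0.126). Pparg, the master factor, averaged 11.2 ± 2.24 CPM on HFD and 12.5 ± 2.09 CPM on SD (s.d., n = 5 and 4), and the groups overlapped (log2 fold change -0.16 ± 0.21 SE, edgeR adjusted p = 0.593). The committed preadipocyte list had 4 of 14 higher and none lower. The 4 were Col15a1, Fabp4, Cd36 and Lpl, all of them members of lists given above. Only 8 of the 14 were positive, and the list median was 0.401, or 0.0248 with the GC correction. The preadipocyte markers Dlk1 and Icam1 had negative fold changes and did not pass (edgeR adjusted p = 0.0709 and 0.161). Of 15 genes of DPP4+ interstitial progenitors, a less committed population, 1 fell, Arl4d. Dpp4 itself averaged 414 CPM on HFD and 245 CPM on SD, and Pi16, another marker of that population, 4069 and 7085 CPM (edgeR adjusted p = 0.0907 and 0.0527). The CD142 list, for stromal cells described as inhibiting adipogenesis, had 1 of 9 lower, Cygb.

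In the Wnt list 1 of 27 genes rose and 2 fell, against 2.98% and 4.63% of all genes tested. Wnt11 was at 43.8 to 57.2 CPM on HFD and 90.6 to 151 CPM on SD, and fell by 1.13 ± 0.19 (edgeR adjusted p = 0.0262). Nkd1, an inhibitor that Wnt signalling itself induces, fell by 1.28 ± 0.23, while Sfrp1, a secreted Wnt inhibitor, rose by 0.79 ± 0.21 with 54.5 to 97.8 CPM on HFD and 29.8 to 47.1 CPM on SD. Nkd2, a relative of Nkd1 named after its values were seen, fell by 1.33 ± 0.25. Nkd1 and Nkd2 passed with the GC correction too, at -0.99 and -1.05 (edgeR adjusted p = 0.0302 and 0.0345), and Wnt11 and Sfrp1 did not (edgeR adjusted p = 0.0554 and 0.0524). Of 34 PDGF, FGF and IGF genes Fgf1 and Hgf rose and Igfbp4 fell. In the TGF-beta and BMP list Fstl1 rose and the BMP-responsive Id3 and the BMP antagonist Chrd fell, out of 30. These few calls also stand beside 2.98% higher and 4.63% lower over all genes tested and are no result about the pathways.

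Estrogen and progesterone signalling was looked at because the series concerns estradiol. Of 17 tested genes 1 fell, Sult2b1, and none rose. Esr1, the estrogen receptor alpha, was at 101, 81.3, 87.7, 88.5 and 92.0 CPM on HFD, against 68.4, 72.7, 29.4 and 41.9 CPM on SD, without overlap, and did not pass (log2 fold change 0.76 ± 0.25 SE, edgeR adjusted p = 0.0601). Pgr, the progesterone receptor and an estrogen target, was at 58.6, 26.1, 4.60, 11.3 and 20.3 CPM on HFD, against 18.2, 5.41, 4.21 and 6.87 CPM on SD. Greb1, another estrogen target, was at 71.1, 33.8, 6.84, 15.8 and 29.2 CPM on HFD, against 27.5, 6.88, 3.61 and 17.2 CPM on SD. For both genes replicate 1 was highest in each group, HFD 3 was lowest on HFD and SD 3 lowest on SD, and neither passed (edgeR adjusted p = 0.0999 and 0.171). Both varied over more than 10-fold among HFD libraries.

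The 12 steepest falls by the naming rule included 3 genes of the mammary and skin epithelial list, Cldn4, Cldn3 and Krt14. Cldn4, a tight junction protein, was at 10.8, 29.8, 80.1, 45.6 and 25.3 CPM on HFD, against 42.4, 81.0, 245 and 318 CPM on SD. The groups overlapped, with HFD 3 near SD 2, and SD 3 and SD 4 were far above the other libraries. The log2 fold change was -2.17 ± 0.58 (SE; adjusted p = 0.0455, edgeR). Cldn3 of the same family fell by 2.04 ± 0.52, the basal keratin Krt14 by 2.15 ± 0.61, the epithelial factor Elf3 by 2.27 ± 0.63 and the membrane protease Prss8 by 2.64 ± 0.67. The mucus protein Fcgbp was at 2.82 to 23.2 CPM on HFD and 26.1 to 169.8 CPM on SD. None of these passed with the GC correction, and Fcgbp came nearest (edgeR adjusted p = 0.068).

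The whole marker list of mammary and skin epithelium had negative fold changes. Of 13 tested members 4 fell (Krt14, Cldn3, Cldn4 and Trf), all 13 were negative, and the median was -1.44. Its summed level was 107 to 418 CPM on HFD and 305 to 1229 CPM on SD, with 1064 CPM in SD 3 and 1229 CPM in SD 4. None of the members in the table was at 0 in every library. Trf need not be epithelial here. In the left-out SD 5 library, scaled with the other SWAT libraries, it was at 133 CPM, with Krt8 at 0.251 and Cldn4 at 0.0914 CPM. Trf gave 49.7 of the 107 CPM summed in HFD 1 and 129.8 of the 305 CPM summed in SD 1. Epcam, which defines epithelium, was at 2.75 to 26.6 CPM on HFD and 10.4 to 34.9 CPM on SD (edgeR adjusted p = 0.37), and Krt8 and Krt18 averaged 47.8 and 53.8 CPM on HFD and 129.8 and 149 CPM on SD. Against SD 1 and SD 2 alone the list median was -0.39. The mesothelial list, which shares keratins with it, summed to 110 to 367 CPM on HFD and 219 to 1202 CPM on SD. How much of the falls above came from epithelial RNA in the libraries was not tested.

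Markers of other cell types were summed in the same way. The leukocyte list summed to 33.0 to 63.3 CPM on HFD and 27.6 to 152 CPM on SD over 20 genes, with S100a9 at 0 in every library and 0 of 17 tested members called by edgeR. The endothelial list summed to 420 to 564 CPM on HFD and 422 to 853 CPM on SD, with 0 of 12 called. The mature adipocyte list summed to 12.4 to 20.7 CPM on HFD and 13.2 to 35.2 CPM on SD, and 1 of 6 was called, Cfd. The mural list had 1 of 11 lower, Kcnj8, the mesothelial list 1 of 6 lower, Krt19, and the Schwann, muscle and erythroid lists had 0 called by edgeR.

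Falls that held with the GC correction were found outside the epithelial list. Chi3l1, a secreted chitinase-like protein, was at 0.303, 1.82, 2.95, 2.98 and 2.56 CPM on HFD, against 4.73, 10.5, 25.985 and 18.9 CPM on SD, the steepest fall by the rule (log2 fold change -2.84 ± 0.56 SE, edgeR adjusted p = 0.0317), and -2.65 with the correction (edgeR adjusted p = 0.0345). Chi3l1 is outside the epithelial list, but its level was lowest in HFD 1 and highest in SD 3 and SD 4. The summed epithelial list was also lowest in HFD 1, at 107 CPM, and highest in SD 3 and SD 4, at 1064 and 1229 CPM. How much of the Chi3l1 fall came from epithelial RNA was not tested. The next genes were named after their values were seen. Cbs, the first enzyme of transsulfuration, was at 4.76, 5.72, 3.42, 4.78 and 4.54 CPM on HFD, against 6.55, 18.9, 25.1 and 21.9 CPM on SD. It fell by 1.96 ± 0.32 without and by 2.02 with the correction (edgeR adjusted p = 0.0257 and 0.0186). SD 1 was closer to the HFD libraries than to the other SD libraries. Inmt, an indolethylamine methyltransferase, was at 150.4 to 428 CPM on HFD and 427 to 1802 CPM on SD, with HFD 2 level with SD 1, and fell by 1.83 ± 0.36. The membrane glycoprotein Gpnmb fell by 1.60 ± 0.36, angiotensinogen (Agt) by 1.58 ± 0.30 and Cbx7, a Polycomb protein that represses cell cycle inhibitors, by 1.75 ± 0.31. These 4 were at -1.45, -1.69, -1.02 and -1.26 with the correction and passed (edgeR adjusted p = 0.0372, 0.0449, 0.0427 and 0.0374).

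**Figure D4:**
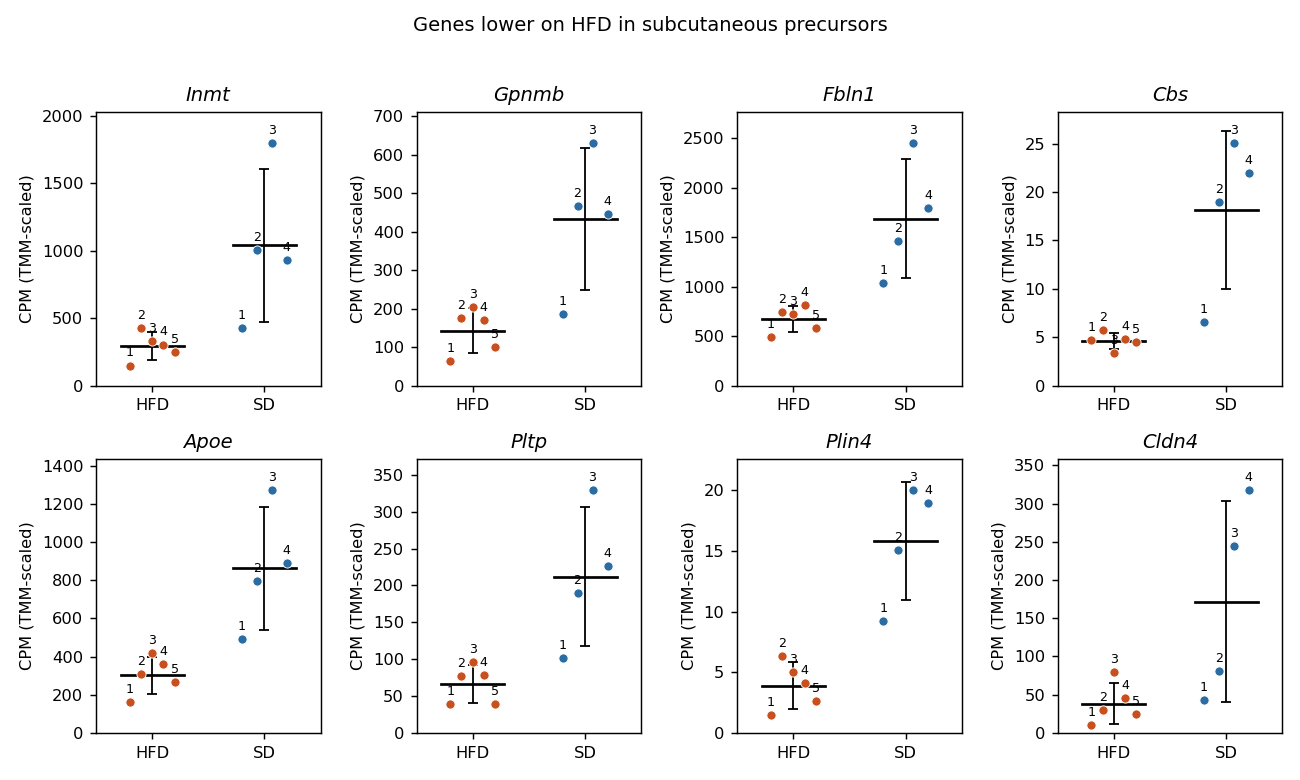
CPM of 8 genes that were lower on HFD, with 5 HFD libraries left and 4 SD libraries right in each panel. Points are libraries numbered by replicate, and bars give the mean ± SD. SD 1 is the SD library nearest to HFD in all 8 panels. SD 3 is highest in 7 of the panels, and SD 4 is highest for Cldn4.

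Some cytosolic ribosomal protein genes fell. Of 53 tested members 15 fell and none rose, 5 were positive, and the median was -0.82. Rps14 was at 551, 854, 529.8, 681 and 575 CPM on HFD, against 831, 1371, 2638 and 2221 CPM on SD (log2 fold change -1.47 ± 0.29 SE, edgeR adjusted p = 0.0317). The summed level was 15905 to 20336 CPM on HFD, against 21930, 22896, 48092 and 27104 CPM in SD 1 to 4, so SD 3 was far above all other libraries. Rps14 was the member called with the GC correction, at -0.93, and the median was then -0.49. Against SD 1 and SD 2 alone the median was -0.39. These genes have many near-identical pseudogene copies, and their counts are uncertain for that reason. Immediate early and dissociation genes had 3 of 21 lower (Junb, Jund and Ier3), and 0 with the correction by edgeR. The circadian and glucocorticoid lists had 0 called by edgeR. In the endoplasmic reticulum stress list 1 of 24 rose, Pdia3, in the lysosome list 1 of 24 rose and 1 fell, and in the NRF2 list 1 of 22 fell.

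**Figure D5:**
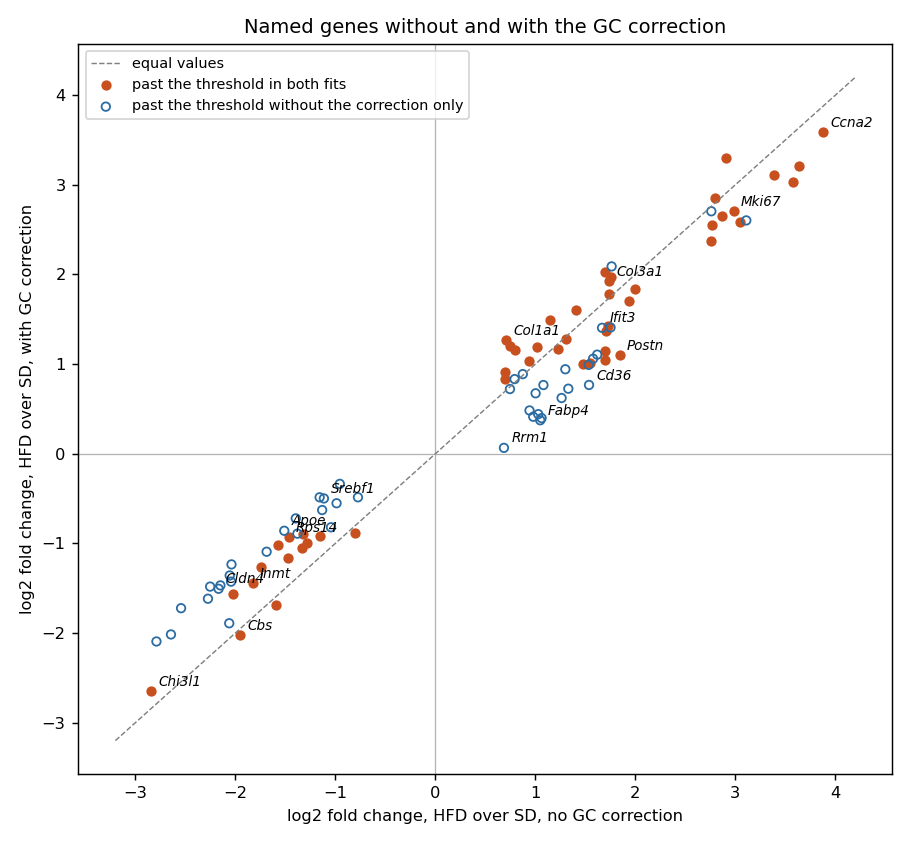
Log2 fold change, HFD over SD, of the named genes that passed without the GC correction, on the horizontal axis, and of the same genes with it, on the vertical axis. Filled points passed in both fits, open points passed without the correction only, and the dashed line marks equal values. Mitosis genes lie at the upper right and Chi3l1 at the lower left in both fits, whereas Fabp4, Rrm1, Srebf1 and the epithelial gene Cldn4 lie nearer to 0 with the correction.

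The diet difference was set against that of visceral precursors in a fit of 18 libraries, which leaves out the library numbered 5 on SD in each depot. The library labelled VWAT SD 5 carried subcutaneous markers, with 51.1 CPM of Tbx15, 34.6 CPM of Irx1 and 0.165 CPM of Wt1 by depth alone, so the depot markers of both libraries go against their labels. Of 14360 genes 1 passed the test of the diet by depot interaction by edgeR (0.00696%), with 438 at an unadjusted p under 0.05. This gene was Frzb, which encodes a secreted Wnt antagonist. In SWAT it was at 0.398, 0.322, 0.291, 0.289 and 0.125 CPM on HFD, against 1.21, 1.34, 0.524 and 0.457 CPM on SD. In VWAT it was at 38.3, 21.9, 14.9, 22.2 and 30.1 CPM on HFD, against 11.7, 9.21, 6.57 and 6.45 CPM on SD. The log2 fold change was -1.69 in SWAT and 1.58 in VWAT, a difference of -3.27 ± 0.52 (SE; adjusted p = 0.0439, edgeR). All SWAT libraries were below 2 CPM. The gene passed in the fits without SD 3 or SD 4 of SWAT, and without SD 1 or HFD 3 of VWAT, but not without any other library.

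For Mki67, Col3a1 and Postn, the depots were not shown to differ. The difference in log2 fold change, SWAT minus VWAT, was 0.16 for Mki67 with a 95% interval of -1.90 to 2.22, so the interval still allows a difference of over 1 in either direction. For Col3a1 it was -0.20 with an interval of -1.13 to 0.73, and for Postn 0.49 with an interval of -0.55 to 1.53. Cldn4 was at -2.16 in SWAT and 1.76 in VWAT, and the difference of -3.92 did not pass (edgeR adjusted p = 0.9985).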

How the data were processed

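The deposited table holds whole-number read counts per gene that the authors did not normalize. The submitters' processing notes name TopHat, HTSeq and mm9 without versions. No source used here gives the annotation or strand setting, so overlapping and antisense genes are uncertain, although the kit marks strand per the labels' protocols. Of 33929 rows, 5 HTSeq summary rows (21.77% to 37.04% of reads) and 25 rows named by date numbers (0.08382% to 0.1533% of gene reads) were left out.

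edgeR 4.0.16 in R 4.3.3 was fitted to these deposited counts of 9 libraries (filterByExpr, TMM, robust quasi-likelihood, no block, Benjamini-Hochberg over all genes tested, threshold 0.05). SE is the absolute log2 fold change over the square root of F. DESeq2 1.42.0 and limma 3.58.1 were alternatives. For the GC correction a natural spline with 5 degrees of freedom of each library's gene deviations on GC content entered as an offset, with GC content from the longest GENCODE M21 transcript of a symbol (found for 98.69% of tested genes). The code was tested on simulated data.

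The members and the 45 gene lists were chosen with earlier results of these data known, lists share genes, and none was tested as a set. A few list members are not reported here. The naming rule took the 12 genes of largest log2 fold change in each direction among those called, at a mean log2 CPM of 1 or more and without predicted genes, the 3 members of smallest p of each main list, and depot, sort and receptor genes by name. Chi-square per degree of freedom between libraries of one group ran from 19.21 to 311.7, so none were copies of each other. P-values weigh the difference between diets against the spread between libraries, each a pool of 3 mice. That spread also holds technical differences between libraries.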

Additional observations from a re-analysis of the deposited data

Results flagged for a closer look

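Some values stood far from the others of their group, by Dixon's 95% criterion. Of 246 groups of values 15 met it, where chance gives about 1 in 20. HFD 1 held 6 of them. In HFD 1 Rrm1 was at 50.8 CPM, Cav1 at 286 CPM, Plod2 at 209.7 CPM, Wt1 at 1.36 CPM and Upk3b, a mesothelial gene, at 0.151 CPM, each the highest on HFD, and Cbx7 was the lowest at 3.605 CPM. SD 3 held 4, with Cebpa at 79.95 CPM, the Wnt inhibitor Nkd1 at 38.7 CPM, Rps27 at 726 CPM and the matricellular gene Sparc at 10055 CPM, each the highest on SD. HFD 2 was highest on HFD for Rps10 (310.2 CPM), for Rps27 (213 CPM) and for the GC trend (0.0955). In HFD 5 Ifit3 was highest at 229.9 CPM. In SD 4 the share of reads on no feature was highest at 9.80%.

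The diet difference in Frzb differed between the depots by the interaction test, by -3.27 on the log2 scale, SWAT minus VWAT. The library labelled SWAT SD 5, which no comparison here uses except as an alternative, had 83.8 CPM of the visceral factor Wt1.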

How the results depend on the processing

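Counts below are genes higher and lower on HFD, with their sum, against 409, 637 and 1046. DESeq2 gave 1630 and 1842 (3472), limma-voom 265 and 218 (483), and a filter at an average log2 CPM of 1 gave 626 higher. RLE and upper-quartile scaling and no filter stayed within 1.5 times. The GC correction gave 118 and 46 (164), and the share of reads on no feature as a covariate 0, 0 and 0. More libraries gave 936 and 1003 (1939) with SD 5 added, 51 and 41 (92) with 18 libraries and 122 and 100 (222) with 20. The SD 5 libraries, which the 10- and 20-library fits add, carry markers of the other depot than their labels name, so these fits may mix depots. Added after seeing the data were SD 1 and SD 2 alone as the SD group with 6 and 1 (7), 18 libraries with GC correction with 151 and 109 (260), and 10 libraries with it with 89 and 45 (134). Leaving out each library in turn gave 0 to 2073 higher, 0 to 2774 lower and 0 to 4847 in all. Same-numbered libraries of the diets correlated at 0.35, -0.24, -0.10 and 0.17 in their deviations, and differently numbered ones at -0.32 to 0.44. Whether the numbers mark shared batches cannot be told from these values, so fits without and with a block are given. With the replicate block there were 100 and 102 (202), with the block and GC correction 109 and 63 (172), and with the block and the share on no feature 69 and 13 (82). Over 2444 alternative fits of the 94 called named genes 2443 kept their direction, though these fits reuse libraries from which the genes were called. The Rrm1 log2 fold change turned to -0.0545 with 10 libraries and GC correction, where the cause was not tested. The interaction gave 1 gene, and 0 with RLE, limma-voom, the share on no feature or 20 libraries, 3 with DESeq2, and 0 to 1 leaving out each library. The share of reads on no feature differed by -2.22 points, HFD minus SD, by -0.947 without SD 4 and by -1.74 with SD 5, and the GC trend by -0.76, or -0.68 without SD 4. These 3 alternatives missed the threshold (exact permutation). The median over all genes moved by under 0.1 on the log2 scale under every scaling tried. Genes near 1 CPM rest on few reads.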
